A study of Homo sapiens with 12 samples.

Results

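The genes described here are the 7 that encode the kinase module of the human Mediator complex and its paralogs: CDK8, CDK19, CCNC, MED12, MED12L, MED13 and MED13L. They were taken by symbol from a table of read counts that held 56634 gene symbols, and all 7 were counted in every library. The samples were 12 RNA-seq libraries of HCT116, an established human colorectal carcinoma cell line, 3 numbered replicates in each of 4 groups. The control group was given vehicle, 0.1% DMSO, for 3 h. Senexin B cells received 1 µM Senexin B, an inhibitor of the kinases CDK8 and CDK19, for 3 h. TNF cells received 0.1% DMSO for 1 h and then 10 ng/mL of the cytokine TNF for 2 h, and the combined group received 1 µM Senexin B for 1 h and then 10 ng/mL TNF for 2 h. The labels name no genetic change in any group.

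Mediator is the large complex that carries signals from DNA-bound transcription factors to RNA polymerase II. Its kinase module binds the rest of the complex reversibly: a cyclin-dependent kinase, CDK8 or its paralog CDK19, pairs with cyclin C, the product of CCNC, while MED12 or MED12L activates the kinase and MED13 or MED13L anchors the module to core Mediator. The paralogs of each pair occupy the same position, so a module holds one of each. In NF-κB signalling, the pathway that TNF switches on, CDK8 and CDK19 are known as positive regulators of transcription elongation at induced genes. Senexin B blocks the kinase activity, so the question for these genes was whether the transcripts of the drug's own targets and of their partners shifted when the kinase was inhibited or when TNF was added.

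In GENCODE 29 (GRCh38) the members lie on 6 chromosomes. CDK8 spans chr13:26254104-26405238 on the plus strand and CDK19 chr6:110609978-110815958 on the minus strand. CCNC spans chr6:99542380-99568973 (minus strand), MED12 chrX:71118556-71142454 (plus strand) and MED12L chr3:151085697-151437072 (plus strand). MED13 spans chr17:61942605-62065282 and MED13L chr12:115953872-116277719, both on the minus strand. No stretch of 50 bases was shared between the longest transcripts of any paralog pair, so reads of one paralog had no long identical copy in the other. Exons of IGSF10 on the opposite strand overlap those of MED12L, and an antisense gene covers 9.16% of the CCNC exon bases. The labels do not state that reads were counted by strand, so MED12L and CCNC counts could include antisense reads, although IGSF10 itself had 0 counts in all 12 libraries.

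The 250 bases before the annotated start are shown for the kinase pair that Senexin B inhibits and for CCNC and MED13L, so that the start regions of members that passed a test in some comparison can be set against those of CDK8 and CDK19, which passed none. MED12 and MED12L also passed none, and only the composition of their windows is given. The sequences are from RefSeq (GRCh38.p14), written 5′ to 3′ on the gene's strand, and capitals mark each GC box, GGGCGG or its reverse complement CCGCCC. The start is that of RefSeq, not of GENCODE. For each gene shown it lies inside the GENCODE span given above, so part of each window falls within that span. The entries were matched by symbol for 6 of the 7 members, all but MED13.
CDK8 (chr13:26253879-26254128, plus strand): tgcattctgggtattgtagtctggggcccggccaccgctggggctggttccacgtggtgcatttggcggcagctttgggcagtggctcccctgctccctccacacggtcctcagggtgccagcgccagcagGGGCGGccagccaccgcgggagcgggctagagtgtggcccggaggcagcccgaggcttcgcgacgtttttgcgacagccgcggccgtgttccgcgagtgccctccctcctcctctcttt
CDK19 (chr6:110815856-110816105, minus strand): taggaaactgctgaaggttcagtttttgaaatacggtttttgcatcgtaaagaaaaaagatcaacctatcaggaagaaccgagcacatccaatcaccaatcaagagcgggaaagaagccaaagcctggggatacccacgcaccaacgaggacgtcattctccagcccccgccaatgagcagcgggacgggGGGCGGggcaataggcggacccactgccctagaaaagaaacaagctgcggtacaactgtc
CCNC (chr6:99568815-99569064, minus strand): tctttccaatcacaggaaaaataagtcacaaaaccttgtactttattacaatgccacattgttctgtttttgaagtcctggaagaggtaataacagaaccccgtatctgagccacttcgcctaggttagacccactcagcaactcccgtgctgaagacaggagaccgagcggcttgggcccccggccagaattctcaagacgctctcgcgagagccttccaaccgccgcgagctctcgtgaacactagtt
MED13L (chr12:116277694-116277943, minus strand): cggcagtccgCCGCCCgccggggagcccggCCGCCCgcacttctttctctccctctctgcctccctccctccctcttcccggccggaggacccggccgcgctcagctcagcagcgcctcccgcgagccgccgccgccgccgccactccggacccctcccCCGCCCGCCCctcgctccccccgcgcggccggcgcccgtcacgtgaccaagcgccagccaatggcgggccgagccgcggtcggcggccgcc

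The MED13L window was 81.2% G+C with 40 CpG dinucleotides and 4 GC boxes, 2 of them overlapping. CDK8 was at 68.8% G+C with 1 GC box, CDK19 at 52.0% with 1 and CCNC at 50.4% with 0, against a median of 58.0% over 35116 promoter windows of the same length. MED12L, which passed no test, was at 75.6% with 29 CpG dinucleotides and 0 GC boxes, and MED12 at 60.4% with 1 GC box. The GC box letters occurred in 42.6% of those windows. An NF-κB-type motif (GGG, any 2 bases, TTTCC) occurred in 1.73% of all windows and the EGR1-type letters GCGNGGGCG in 8.41%, searched on both strands; neither was found in the windows of the 6 matched members. A match or its absence describes the letters of these windows only.

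The libraries held 5835226 to 9281176 counted reads. Of the 56634 symbols, 13084 passed the filter on low counts and were tested, the 7 members among them, and single member counts ran from 31 (MED12L) to 2502 (MED13L) per library. Levels are given as CPM, the count normalised to a common scaled library size, each ± SD with n = 3. Because this is bulk RNA, a lower CPM does not tell fewer expressing cells from less RNA per cell. As checks of the treatments, EGR1, an immediate early gene, averaged 96.8 ± 9.86 CPM in control and 35.6 ± 1.32 with Senexin B, and NFKBIA, which encodes the NF-κB inhibitor IκBα, averaged 25.3 ± 0.237 in control and 295 ± 4.63 with TNF. The 5 epithelial markers fixed for the line (EPCAM, CDH1, KRT8, KRT18 and KRT19) were all detected, with a summed level of 3872 to 4687 CPM per library; 5 fibroblast markers summed to 7.46 to 11.2 CPM with DCN at 0, and 5 blood cell markers to at most 0.539 CPM with HBB at 0. TNF replicate 1, the shallowest library, stood apart in base composition: its deviation from the mean of its group ran against transcript G+C content (Spearman -0.53 across genes, against 0.37 and 0.33 in TNF replicates 2 and 3). This library also held the highest CPM of CDK8, CCNC and MED13, whose transcripts are 45.3%, 39.0% and 38.7% G+C, and values without it or with G+C-corrected offsets are given beside the estimates of these genes that they move by over 1.5 times.

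Per kilobase of exon, the members covered a wide range of levels. RPKM, the CPM divided by the kilobases of union exon, averaged 20.7 ± 1.91 for MED13 and 20.0 ± 1.81 for CCNC over the 12 libraries (SD), and the ranges of this pair overlapped. CDK8 followed at 12.6 ± 0.918, then MED13L at 6.71 ± 0.649 and MED12 at 5.19 ± 0.556, whose ranges over the libraries also overlapped. CDK19 was at 3.03 ± 0.213 and MED12L at 0.446 ± 0.0485. Among the 33 Mediator genes measured here, 26 of core Mediator and the 7 members, MED13 was at rank 3 and CCNC at rank 4, while CDK19 was at rank 31 and MED12L at rank 33, the lowest. The 26 core genes had a median of 9.02 RPKM, from 1.87 for MED26 to 26.9 for MED1. The order depends on the length used. Per length of the longest transcript CCNC was at 46.6 RPKM, rank 1, and MED13L at 17.1, rank 12, above CDK8 at 14.6, rank 18, while MED13 was at 25.1, rank 6. The annotated exons of MED13L add up to 37364 bases and its longest transcript measures 14615.

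**Figure D1:**
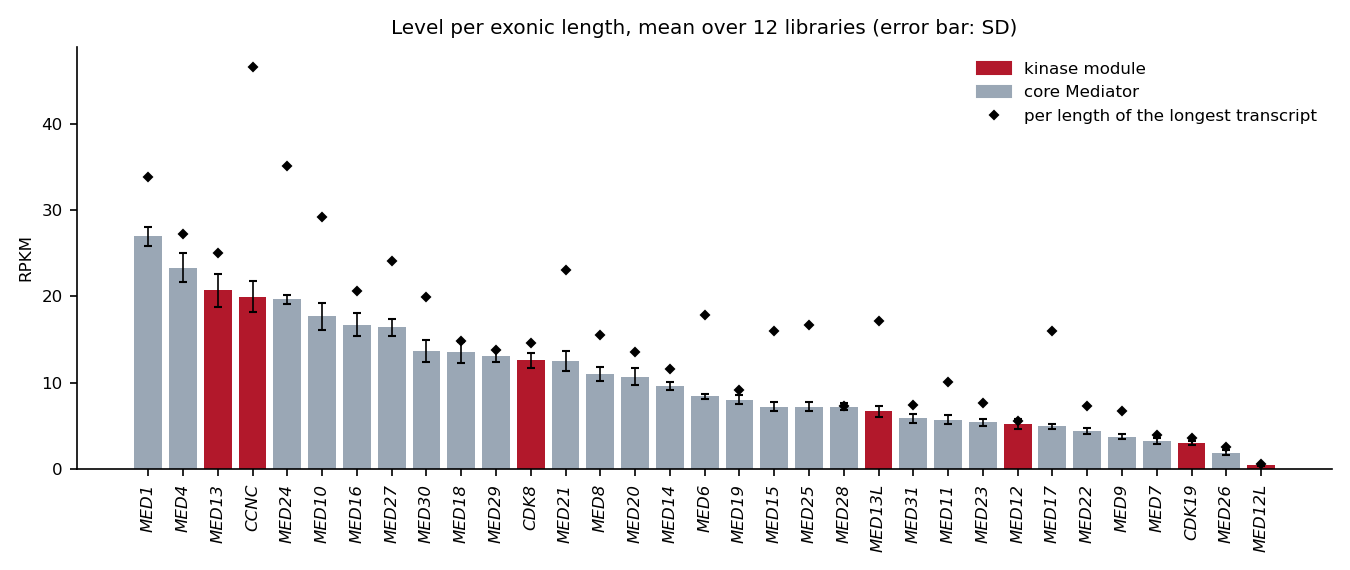
Bars give the RPKM per union exon length of the 33 Mediator genes, mean over 12 libraries with the SD as error bar, members in red and core Mediator in grey; diamonds give the mean per length of the longest transcript. MED13 and CCNC stand near the top at 20.7 and 20.0 RPKM, and CDK19 and MED12L near the bottom at 3.03 and 0.446.

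Of the module's transcripts, MED13 fell with Senexin B and rose with TNF, MED13L rose with both and CCNC rose with TNF, while CDK8, CDK19, MED12 and MED12L passed no test. No change that passed was larger than 17.5%. Averaged over both backgrounds, the MED13 changes and the MED13L rise with TNF were called in all 19 alternative fits. The CCNC rise with TNF was called in 7 of 19 and the MED13L rise with Senexin B in 11 of 19. A gene was called where edgeR's quasi-likelihood test, fitted on all 12 libraries, gave a Benjamini-Hochberg adjusted p under 0.05; log2 fold changes are given ± their standard error. Senexin B against control called 1 of 7 members, MED13, lower; 3.04% of all tested genes were called in this comparison and 1.51% were called lower. TNF against control called 1 of 7, MED13, higher, beside 10.0% of all genes in either direction and 5.81% higher. In TNF-treated cells Senexin B called 1 of 7, MED13L, higher, beside 5.45% of all genes in either direction and 2.90% higher. TNF in Senexin B-treated cells called 2 of 7, MED13 and MED13L, both higher, beside 5.95% and 4.27%. These 4 comparisons share libraries with one another, so each is read by its own values. Averaged over both backgrounds, the mean Senexin B effect called 2 of 7 (MED13 lower, MED13L higher) beside 10.1% of all genes, 4.89% lower and 5.18% higher, and the mean TNF effect called 3 of 7 (CCNC, MED13 and MED13L, all higher) beside 14.2%, 7.85% higher. The balance of all calls depends on the scaling: upper quartile scaling turned 760 higher and 549 lower into 568 higher and 735 lower for TNF against control, and 1027 higher and 837 lower into 792 higher and 1148 lower for the mean TNF effect. The median log2 fold change of the 7 was -0.04 for Senexin B and 0.11 for TNF, against -8.86e-04 and -0.00491 over all tested genes.

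Whether the inhibitor's effect differed with the cytokine was asked with the interaction of the treatments. No member was called by edgeR, beside 0.0459% (6 genes) of all tested, none of the 7 was under an unadjusted p of 0.05, and DESeq2 called none of them either. The interaction estimate, the inhibitor's log2 fold change with TNF minus that without it, was 0.03 for MED13 (95% interval -0.10 to 0.15), 0.11 for MED13L (-0.04 to 0.26) and -0.18 for CDK8 (-0.39 to 0.03). Without TNF replicate 1 the CDK8 value was -0.11, and without control replicate 1 that of MED13L was 0.03 and without combined replicate 1 0.06.

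CDK8, the catalytic subunit and a target of Senexin B, did not pass the test in any comparison. Its level was 40.7, 42.5 and 46.1 CPM in the control libraries (43.1 ± 2.74) and 44.9, 44.8 and 45.1 with Senexin B (44.9 ± 0.150). In the TNF libraries it was 53.1, 46.0 and 42.6 (47.2 ± 5.32), and with both agents 41.0, 44.7 and 42.8 (42.8 ± 1.85). TNF replicate 1 was the highest of the 12, and the combined group lay wholly below the Senexin B group by a small margin; 21.9% of all tested genes had groups that did not overlap in that comparison. TNF against control gave 0.11 ± 0.08 on the log2 scale (adjusted p = 0.383), 0.04 without TNF replicate 1 and 0.19 without TNF replicate 3. Senexin B in TNF-treated cells gave -0.13 ± 0.08 (adjusted p = 0.372), -0.05 without TNF replicate 1 and -0.20 without TNF replicate 3. Averaged over both backgrounds, CDK8 differed with Senexin B by -2.45% (95% interval -9.33% to 4.96%; log2 fold change -0.04 ± 0.05, adjusted p = 0.733 by edgeR) and with TNF by 1.61% (-5.56% to 9.32%; adjusted p = 0.837). Without TNF replicate 1 these mean effects turned in sign, to log2 fold changes of 0.0030 for Senexin B and -0.016 for TNF.

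CDK19, the paralogous kinase and the other target of the drug, was also not called anywhere. It stood at 23.9, 25.2 and 22.0 CPM in control (23.7 ± 1.59), and the Senexin B libraries at 22.4, 25.2 and 20.0 (22.5 ± 2.58) held both its highest and its lowest value. With TNF it was 21.7, 21.5 and 21.1 (21.4 ± 0.274), a narrow group below all control libraries, and with both agents 23.9, 23.2 and 22.5 (23.2 ± 0.691), wholly above the TNF group. Groups that did not overlap were found for 24.3% and 22.6% of all genes in these 2 comparisons, and neither difference passed edgeR's test (adjusted p = 0.404 and 0.574). Over both backgrounds, CDK19 differed with Senexin B by 1.35% (95% interval -7.74% to 11.3%; log2 fold change 0.02 ± 0.07, adjusted p = 0.900) and with TNF by -3.27% (-11.9% to 6.25%; adjusted p = 0.714). The 12 libraries resolved no shift of either kinase transcript within those intervals.

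**Figure D2:**
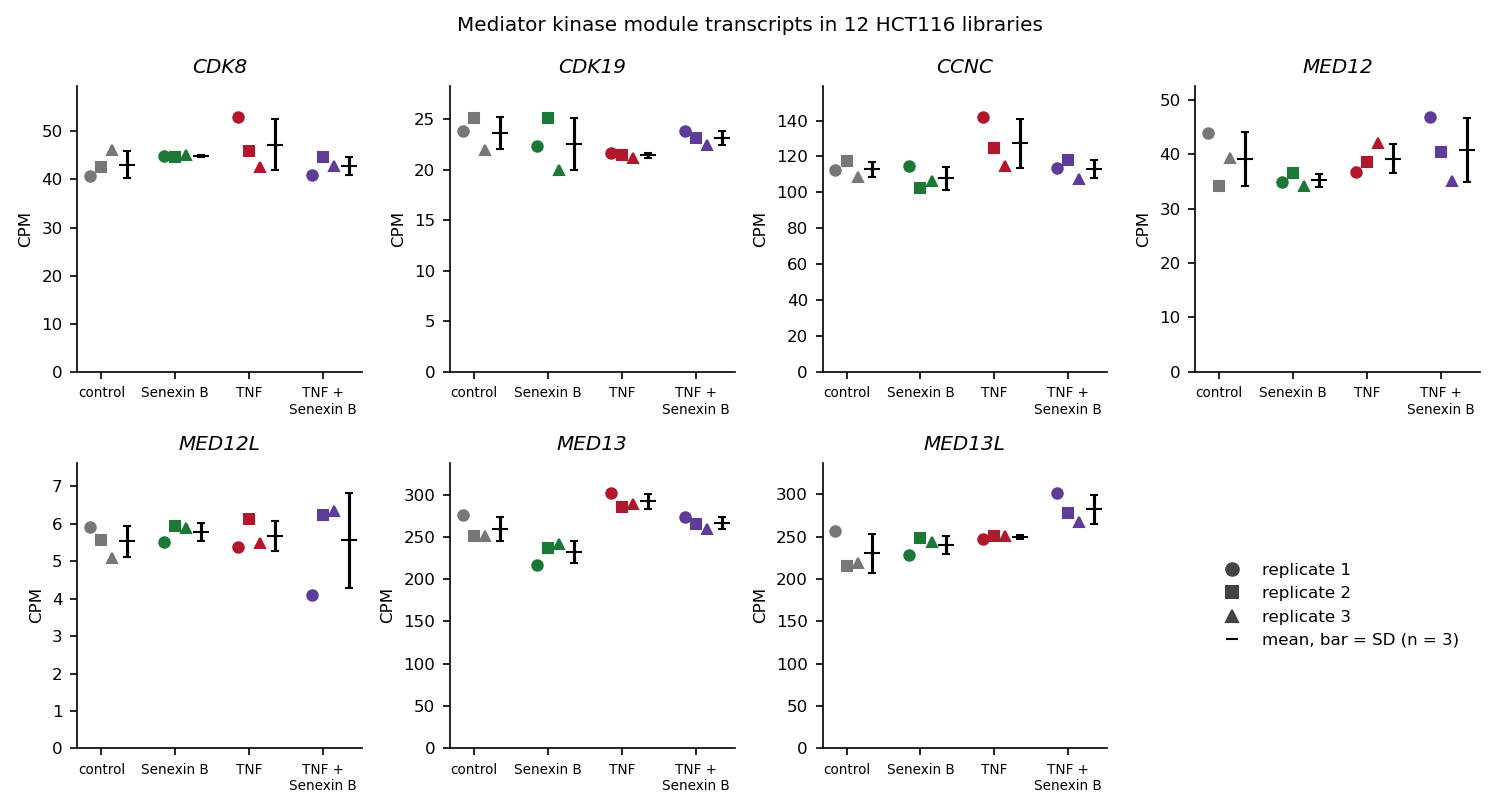
Each panel gives the CPM of one member (vertical axis, from 0) in the 12 libraries by group, with the mean and SD (n = 3) beside the points and replicates 1, 2 and 3 as circle, square and triangle. MED13 is lower in both groups with Senexin B (232 and 266 CPM) than in their counterparts without it (259 and 292), and MED13L is highest with both agents (282).

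CCNC, which encodes cyclin C, the activating partner that CDK8 and CDK19 share, was at 113, 117 and 109 CPM in control (113 ± 4.38) and 115, 102 and 106 with Senexin B (108 ± 6.42). The TNF libraries held 142, 125 and 115 (127 ± 13.8) and the combined libraries 114, 118 and 107 (113 ± 5.20). The groups overlapped in all 4 simple comparisons, and TNF replicate 1 was the highest of the 12. In the mean TNF effect CCNC rose by 8.46% (95% interval 2.42% to 14.9%; log2 fold change 0.12 ± 0.04, adjusted p = 0.0468 by edgeR). That call was narrow: it ended without TNF replicate 1 (adjusted p = 0.162), without it and control 1 together (0.166), with G+C-corrected offsets (log2 fold change 0.07, adjusted p = 0.193), with DESeq2 (0.136), with upper quartile scaling (0.116) and without any one of 7 other libraries: control 1 and 3, Senexin B 2 and 3, TNF 2 and combined 1 and 2 (0.0532 to 0.147). The mean Senexin B effect was -0.11 ± 0.04 with adjusted p = 0.0656, not called, with a 95% interval of -12.8% to -2.18% in level; it was -0.08, adjusted p = 0.204 without TNF replicate 1 and -0.07, adjusted p = 0.232 with G+C-corrected offsets, and it passed without Senexin B replicate 1 (0.0361) or TNF replicate 3 (0.0126). TNF against control (log2 fold change 0.17 ± 0.06, adjusted p = 0.0586) dropped to 0.09, adjusted p = 0.396 without TNF replicate 1 and 0.09, adjusted p = 0.285 with G+C-corrected offsets, and passed without control replicate 2 (0.0499), without TNF replicate 3 (0.00721) or with no filter on low counts (0.0360). Senexin B in TNF-treated cells (log2 fold change -0.16 ± 0.06, adjusted p = 0.0895) gave -0.09, adjusted p = 0.489 without TNF replicate 1 and -0.09, adjusted p = 0.359 with G+C-corrected offsets, and passed without TNF replicate 3 (0.0145).

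MED12, the subunit that activates the kinase and a gene known for recurrent mutation in uterine fibroids, was not called. It was at 43.9, 34.1 and 39.2 CPM in control (39.1 ± 4.94) and in a narrow group of 34.8, 36.6 and 34.1 with Senexin B (35.2 ± 1.26). It was at 36.8, 38.6 and 42.0 with TNF (39.1 ± 2.67) and 46.9, 40.4 and 35.1 with both agents (40.8 ± 5.92), the group with the widest spread. All 4 pairs of groups compared overlapped. The mean Senexin B effect was -3.33% (95% interval -11.4% to 5.52%; log2 fold change -0.05 ± 0.06, adjusted p = 0.687) and the mean TNF effect 8.23% (-0.849% to 18.1%; adjusted p = 0.251). TNF under Senexin B gave its largest difference (log2 fold change 0.21 ± 0.09, adjusted p = 0.189), which passed without combined replicate 3 (adjusted p = 0.0268) and was 0.10, adjusted p = 0.737 without combined replicate 1. The mean TNF effect (0.11 ± 0.06) passed without control 1 and TNF 1 together (0.0437), and was 0.06, adjusted p = 0.619 without combined replicate 1 and 0.07, adjusted p = 0.541 without control replicate 2.

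MED12L, its paralog, was the scarcest member, with 31 to 55 reads per library. Its group means were 5.53 ± 0.425 CPM in control, 5.78 ± 0.240 with Senexin B, 5.67 ± 0.407 with TNF and 5.56 ± 1.26 with both agents. The lowest library, combined replicate 1 at 4.10 CPM, and the highest, combined replicate 3 at 6.34, belonged to the same group. At this depth the mean Senexin B effect of 1.35% carried a 95% interval of -15.1% to 21.0% and the mean TNF effect of -0.130% one of -16.4% to 19.3%, so a change within these bounds could not be resolved.

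MED13, the subunit that joins the kinase module to core Mediator, was the member with the clearest pattern: it fell with Senexin B and rose with TNF. Control libraries held 276, 251 and 251 CPM (259 ± 14.1), and Senexin B libraries 217, 237 and 242 (232 ± 13.0), all 3 below control. TNF libraries held 302, 285 and 289 (292 ± 8.75), and combined libraries 274, 265 and 259.7 (266 ± 7.00), which lay between TNF and Senexin B. The libraries of the groups did not overlap in any of the 4 simple comparisons, where 20.0%, 24.3%, 22.6% and 21.9% of all genes did the same.

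With Senexin B alone MED13 fell by 10.4% (log2 fold change -0.16 ± 0.04, adjusted p = 0.0286 by edgeR), and in TNF-treated cells it differed by -8.72% (log2 fold change -0.13 ± 0.04, adjusted p = 0.0650), which did not pass. The mean Senexin B effect, which draws on all 12 libraries, was -9.58% (95% interval -13.4% to -5.58%; log2 fold change -0.15 ± 0.03, adjusted p = 7.83e-04) and was called in all 19 alternatives run on it, the smallest being -0.10, adjusted p = 0.00742 with G+C-corrected offsets. The single comparison against control was weaker: it was not called without control replicate 1 (adjusted p = 0.281), Senexin B replicate 1 (0.282) or Senexin B replicate 2 (0.0589), without control 1 and TNF 1 together (0.102), or with no filter on low counts (0.0647). The comparison in TNF-treated cells passed without control replicate 1 (0.0423) and dropped to -0.06, adjusted p = 0.499 with G+C-corrected offsets.

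TNF raised MED13 by 12.6% against control (log2 fold change 0.17 ± 0.04, adjusted p = 0.00575 by edgeR) and by 14.7% under Senexin B (log2 fold change 0.20 ± 0.04, adjusted p = 0.00123). The mean TNF effect was 13.6% (95% interval 8.83% to 18.7%; log2 fold change 0.18 ± 0.03, adjusted p = 6.34e-06) and was called in all 19 alternatives, among them the fit without TNF replicate 1. Against control alone the call ended with G+C-corrected offsets (0.10, adjusted p = 0.0942) and without control replicate 2 (0.0513) or 3 (0.0592), and under Senexin B it ended without Senexin B replicate 1 (0.0502).

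MED13L, the paralog of MED13, whose disruption causes a developmental syndrome, was called higher with TNF, as MED13 was, and higher with Senexin B, where MED13 was lower. It was at 257, 215 and 219 CPM in control (230.2 ± 22.9), where replicate 1 stood above the other two, and at 228, 248 and 244 with Senexin B (240.2 ± 10.7). The TNF libraries lay close together at 247, 251 and 250.4 (249.6 ± 2.03), and the combined libraries at 302, 278 and 267 (282 ± 17.6) were above every library of the TNF and Senexin B groups. In these comparisons with TNF and with Senexin B, 22.6% and 21.9% of all tested genes had groups that did not overlap, in either direction. The mean TNF effect was 13.0% (95% interval 7.26% to 19.0%; log2 fold change 0.18 ± 0.04, adjusted p = 6.56e-04 by edgeR), called in all 19 alternatives. Under Senexin B the rise with TNF was 17.5% (log2 fold change 0.23 ± 0.05, adjusted p = 0.00228; 0.0506 with G+C-corrected offsets). Against control TNF gave log2 fold change 0.12 ± 0.05, adjusted p = 0.165, which was 0.20, adjusted p = 0.00298 without control replicate 1 and 0.07, adjusted p = 0.480 without control replicate 2.

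Senexin B raised MED13L in TNF-treated cells by 13.0% (log2 fold change 0.18 ± 0.05, adjusted p = 0.0371 by edgeR), and its mean effect was 8.67% (95% interval 3.19% to 14.4%; log2 fold change 0.12 ± 0.04, adjusted p = 0.0315). Against control the difference was 0.06 ± 0.05 (adjusted p = 0.638), and it passed without control 1 and TNF 1 together (0.0270). Both calls were narrow. In TNF-treated cells the call ended with G+C-corrected offsets (0.20, adjusted p = 0.0943) and without TNF replicate 1, 2 or 3 (0.286, 0.0668 and 0.0936) or combined replicate 1 or 2 (0.221 and 0.0689), with log2 fold changes of 0.13 to 0.19 over these 5 libraries. The mean effect lost its call with G+C-corrected offsets (0.14, adjusted p = 0.0712) and without any one of TNF 1 or 3, combined 1, control 2 or 3, and Senexin B 2 or 3 (0.0610 to 0.171), and kept its positive sign in each.

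**Figure D3:**
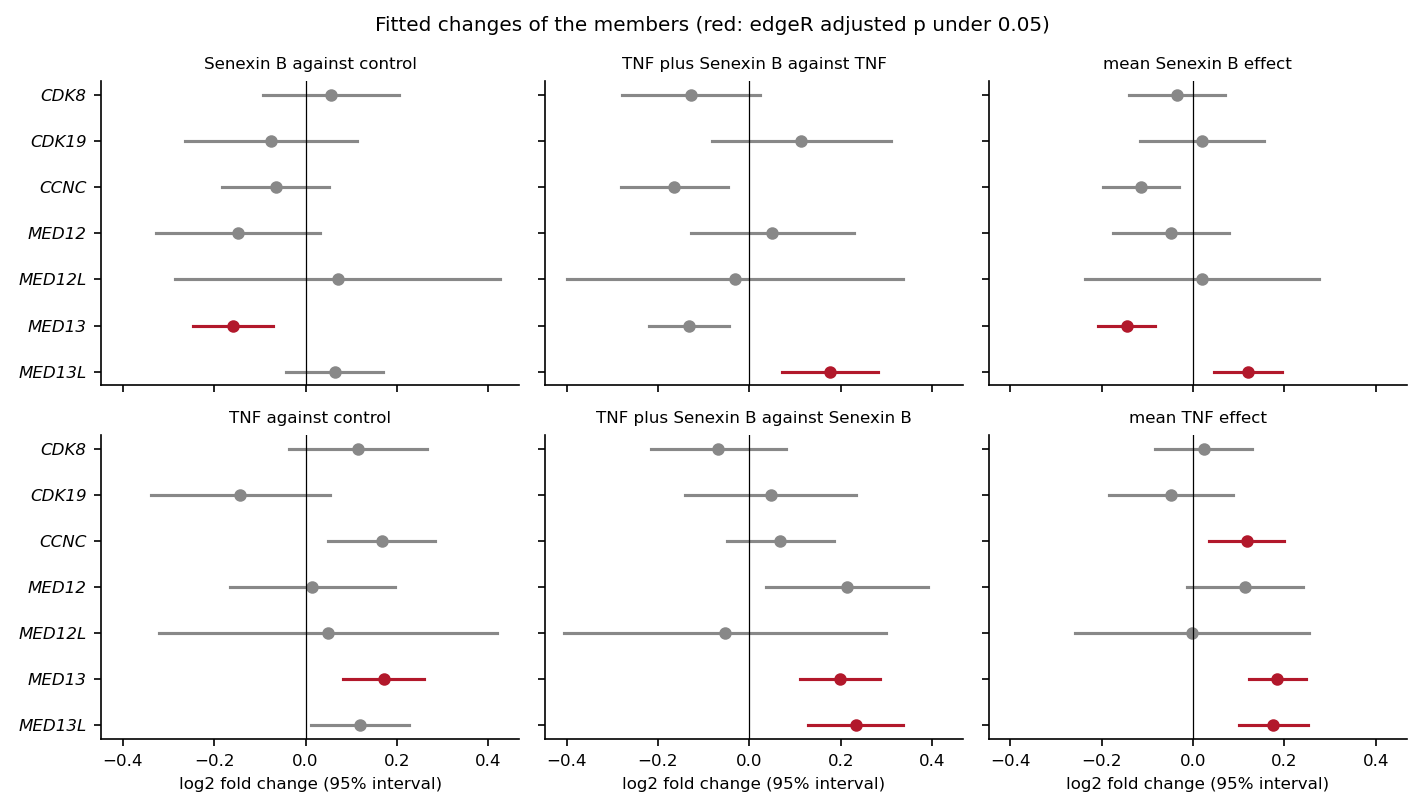
Each panel gives the log2 fold change of the 7 members in one comparison (horizontal axis) as a point with its 95% interval, red where edgeR's adjusted p was under 0.05. MED13 lies at -0.15 for the mean Senexin B effect and 0.18 for the mean TNF effect, MED13L at 0.12 and 0.18, while the intervals of CDK8, CDK19 and MED12L cross 0 in all 6 panels.

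The ratio of a paralog pair within one library does not depend on library size, and it was tested by exact two-sided permutation of the libraries. For MED13 to MED13L, the reads of MED13 per read of MED13L numbered 1.07, 1.17 and 1.15 in control and 0.953, 0.955 and 0.989 with Senexin B. They numbered 1.22, 1.13 and 1.16 with TNF and 0.907, 0.956 and 0.972 with both agents. All 6 libraries with Senexin B, from 0.907 to 0.989, were thus below all 6 without it, from 1.07 to 1.22. The share of other gene pairs whose ratios separate in this way was not counted, so the separation is a description. MED13 made up 53.0% of the pair's reads in control and 49.1% with Senexin B, and 53.9% with TNF and 48.6% with both. These are shares of reads: over the 12 libraries the ratio was 3.10 ± 0.319 per exon length and 1.47 ± 0.151 per length of the longest transcript (SD).

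The mean Senexin B effect on this ratio was a log2 difference of -0.27 (-16.9%), with an exact permutation p of 0.005, the smallest the 400 arrangements allow, and 0.09 after Benjamini-Hochberg adjustment over the 18 ratio tests, so it did not pass the correction. The simple comparisons gave -0.23 without TNF and -0.31 with it, each at an exact permutation p of 0.1, the smallest that 3 libraries against 3 allow. For TNF the mean effect on the ratio was 0.01 (exact permutation p = 0.790), and its groups overlapped. The members of this pair were called in opposite directions by Senexin B in the whole-table fit, from the same reads, so the ratio is another view of those values and no separate evidence.

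CDK8 had 1.97 ± 0.236 reads per read of CDK19 (SD over 12 libraries), which is 4.18 ± 0.50 per exon length, so CDK8 was the more abundant kinase transcript in each library. The count ratios were 1.71, 1.69 and 2.10 in control, 2.01, 1.78 and 2.25 with Senexin B, 2.45, 2.14 and 2.02 with TNF and 1.72, 1.93 and 1.90 with both agents. The TNF libraries lay above all combined libraries (log2 difference -0.25, exact permutation p = 0.1, adjusted 0.45), and the other groups overlapped. Here too the share of other gene pairs that separate was not counted. The mean Senexin B effect was -0.06 (exact permutation p = 0.595).

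MED12 had 6.98 ± 1.57 reads per read of MED12L, or 11.9 per exon length. The group means ran from 6.09 ± 0.264 with Senexin B to 7.82 ± 3.17 with both agents, where combined replicate 1 alone reached 11.4. All of its groups overlapped, and the mean effects of Senexin B and TNF had exact permutation p-values of 0.815 and 0.625.

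**Figure D4:**
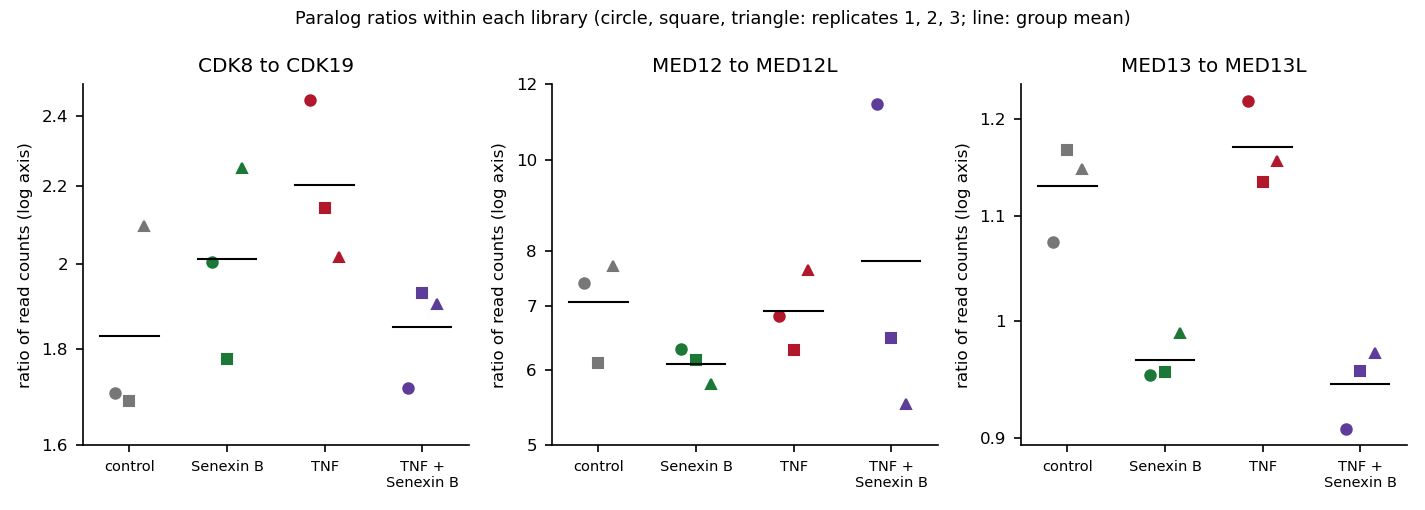
Each panel gives the ratio of read counts of a paralog pair (vertical log axis) in the 12 libraries by group, with a line at the group mean. The 6 libraries with Senexin B lie between 0.907 and 0.989 for MED13 to MED13L, under the 6 others at 1.07 to 1.22, while the groups of MED12 to MED12L overlap. The share of other gene pairs that separate in this way was not counted.

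Of the 26 core Mediator genes, the mean Senexin B effect called 1, MED15, a tail subunit that binds activators, higher, and the mean TNF effect called the same gene higher, beside 10.1% and 14.2% of all genes called in either direction. MED15 averaged 68.2 ± 0.328 CPM in control, 75.8 ± 1.81 with Senexin B, 74.4 ± 4.17 with TNF and 82.0 ± 0.136 with both agents (log2 fold change 0.14 ± 0.04, adjusted p = 0.0128 for Senexin B and 0.12 ± 0.04, adjusted p = 0.0291, for TNF). The Senexin B call ended with G+C-corrected offsets (adjusted p 0.0809), and the TNF call with DESeq2 (0.114), upper quartile scaling (0.0855) or no filter (0.0584) and without control 3, Senexin B 3, TNF 2 or combined 1, 2 or 3 (adjusted p 0.05003 to 0.0993). MED21, a middle subunit, was called lower with Senexin B in TNF-treated cells (43.6 ± 3.72 to 36.4 ± 2.87 CPM; log2 fold change -0.25 ± 0.08, adjusted p = 0.0449), and that call held in 5 of 20 alternatives and ended without control 3, Senexin B 1, 2 or 3, TNF 1 or 3 or combined 1, 2 or 3 (adjusted p 0.0503 to 0.255). The median log2 fold change of the 26 was 0.03 for Senexin B and 0.02 for TNF.

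Among 10 genes of the other kinase pairs that act on RNA polymerase II (CDK7 with CCNH and MNAT1, CDK9 with CCNT1 and CCNT2, CDK12 and CDK13 with CCNK, and HEXIM1), HEXIM1 was the only one called in all 4 simple comparisons, each time lower. HEXIM1 encodes the inhibitor that holds CDK9 and cyclin T, the P-TEFb elongation kinase, inactive in a complex with 7SK RNA. It fell from 88.8 ± 2.59 CPM in control to 70.7 ± 2.36 with Senexin B and 74.4 ± 3.32 with TNF, and was at 56.4 ± 0.797 with both agents. The mean effects were log2 fold change -0.37 ± 0.04, adjusted p = 7.19e-10 for Senexin B and log2 fold change -0.29 ± 0.04, adjusted p = 1.54e-07 for TNF by edgeR, called in every alternative run, and the interaction was -0.07 (95% interval -0.24 to 0.09).

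The mean Senexin B effect also called CDK9 higher (log2 fold change 0.16 ± 0.04, adjusted p = 0.00633; 69.5 to 77.6 CPM without TNF and 64.2 to 72.0 with it), in all 19 alternatives, and CCNT1, which encodes cyclin T1 (log2 fold change 0.09 ± 0.03, adjusted p = 0.0453), whose call held in 7 of 19 alternatives and ended without control 1, 2 or 3, Senexin B 1, 2 or 3, TNF 3 or combined 1, 2 or 3 (adjusted p 0.0508 to 0.131). In all, 3 of the 10 were called for Senexin B, beside 10.1% of all genes, and 1 of 10 for TNF, beside 14.2%. CCNT1 was called higher by TNF against control (log2 fold change 0.13 ± 0.04, adjusted p = 0.0433) and CDK12 by TNF under Senexin B (log2 fold change 0.15 ± 0.05, adjusted p = 0.0388), calls that held in 4 of 20 and 12 of 20 alternatives. The CCNT1 call ended without control 1, 2 or 3, Senexin B 1, 2 or 3, TNF 1 or 2 or combined 2 or 3 (adjusted p 0.0523 to 0.124), and that of CDK12 without Senexin B 1 or 2 or combined 1, 2 or 3 (adjusted p 0.0509 to 0.270). FBXW7, the F-box protein of the ubiquitin ligase that targets MED13 and MED13L for degradation, was not called: its mean effects were -0.04 ± 0.06 for Senexin B (adjusted p = 0.729) and 0.04 ± 0.06 for TNF (0.705).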

How the data were processed

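The authors deposited 1 table of read counts per gene symbol for the 12 libraries, made with STAR 2.4, SAMtools 1.2 and featureCounts from Subread 1.4.6 on GRCh38 (hg38), per the submitters' processing notes; libraries came from the Illumina TruSeq RNA kit, per the labels' protocols, and the gene annotation release, strand setting and handling of multiply mapped reads are not given in the sources used here. The counts were used as deposited. edgeR 4.0.16 in R 4.3.3 fitted all 12 libraries with 1 coefficient per group (TMM scaling, filterByExpr, robust quasi-likelihood, Benjamini-Hochberg over 13084 genes, called under 0.05; 8 residual degrees of freedom). Wald standard errors (±, log2 scale) and 95% intervals are from that fit. The mean effects average both contrasts of an agent. CPM uses the TMM-scaled library size; RPKM adds the union exon length of GENCODE 29. Between replicates, counts differed by more than sampling noise in every pair (chi-square per degree of freedom 1.23 to 2.86), so none was treated as a repeat deposit, and p-values measure the spread between these libraries.

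The named genes are the 7 members, up to 4 called genes with the smallest adjusted p of each of 2 lists (26 core Mediator genes, 10 genes of other transcriptional kinases) per comparison, FBXW7, EGR1, NFKBIA, and for 6 members the 3 genes most like them. The members and lists were chosen with earlier results of these data known. Paralog ratios were tested by exact permutation of libraries. Alternatives were DESeq2 size factors, upper quartile scaling, DESeq2 1.42.0, no count filter, a replicate block, G+C-corrected offsets (G+C known for 12223 of the 13084 genes), only the groups compared, leaving out libraries, 0.5 added counts for ratios, and the longest transcript's length. The fitting code was tested on simulated data.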

Additional observations from a re-analysis of the deposited data

How the results depend on the processing

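Of the 10 calls of members (of 49 member and comparison pairs), 3 held in every alternative: MED13 in both mean effects and MED13L in the mean TNF effect. Counts of all called genes were lower with DESeq2: 259 for Senexin B against control, 799 for TNF against control, 437 for Senexin B with TNF, 485 for TNF under Senexin B, 805 for the mean Senexin B effect and 1185 for the mean TNF effect, against 398, 1309, 713, 779, 1318 and 1864. The interaction called 10 genes with no filter, against 6. Leaving out 1 library gave 236 to 589 genes for Senexin B against control, 451 to 815 for Senexin B with TNF and 2 to 9 for the interaction. The libraries that lowered these counts by over 1.5 times were each Senexin B library for the first, TNF 1 and each combined library for the second, and control 1 and 2, Senexin B 2 and 3 and combined 1 and 3 for the third. No scaling moved the median of all genes by over 0.1. The core Mediator genes called in the mean Senexin B effect numbered 2 with upper quartile scaling, 2 with no filter, 3 with the replicate block, 0 with G+C-corrected offsets and 1 to 4 with 1 library left out. In the mean TNF effect they numbered 0 with upper quartile scaling, 0 with DESeq2, 0 with no filter and 0 to 1 with 1 library left out. The other transcriptional kinases called there numbered 2 with upper quartile scaling, 2 with the replicate block, 3 without control 1 and TNF 1 and 1 to 3 with 1 library left out. The estimates that turned in sign outside the leave-one-out fits passed no test in either fit: CDK8 without control 1 and TNF 1 (-0.0012 for TNF against control and -0.035 for the mean TNF effect), MED12L in that fit (mean TNF effect 0.037), MED12 with upper quartile scaling (-0.0097 for TNF against control) and MED12L with G+C-corrected offsets (0.0012 for Senexin B with TNF). Per length of the longest transcript the levels were 14.6 RPKM for CDK8, 3.63 for CDK19, 46.6 for CCNC, 0.524 for MED12L, 25.1 for MED13 and 17.1 for MED13L.

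With 1 library left out, the log2 estimates that turned in sign in some alternative ranged as follows. CDK19 ran from -0.16 to 0.0061 for Senexin B against control, -0.035 to 0.13 for TNF under Senexin B and -0.023 to 0.060 for the mean Senexin B effect. CDK8 ran from 0.037 to 0.19 for TNF against control, -0.071 to 0.0030 for the mean Senexin B effect and -0.016 to 0.058 for the mean TNF effect. MED12 ran from -0.074 to 0.10 for TNF against control, -0.060 to 0.15 for Senexin B with TNF and -0.10 to 0.00068 for the mean Senexin B effect. MED12L ran from -0.016 to 0.10 for TNF against control, -0.16 to 0.12 for TNF under Senexin B, -0.14 to 0.14 for Senexin B with TNF, -0.21 to 0.071 for the interaction, -0.034 to 0.11 for the mean Senexin B effect and -0.055 to 0.085 for the mean TNF effect. The MED13 interaction ran from -0.018 to 0.060. The MED12 to MED12L ratio ran from -0.13 to 0.038 for TNF against control, -0.023 to 0.50 for TNF under Senexin B, -0.21 to 0.32 for Senexin B with TNF, -0.21 to 0.054 for the mean Senexin B effect and -0.025 to 0.24 for the mean TNF effect. The mean TNF effect on MED13 to MED13L ran from -0.0084 to 0.024. The cause of these turns was not tested.

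By the rule for pairing, which asks every same-numbered pair for a correlation over 0.1, the samples share only a number: of 18 same-numbered pairs, 1 had deviations that correlated over 0.1 (range -0.0111 to 0.117), while in 24 of 36 matches of a library with another group its own number correlated best (12 where numbers carry nothing), a hint from the data and not from the design. With the replicate block, 479 genes were called for Senexin B against control, 1470 for TNF against control, 871 for Senexin B with TNF, 827 for TNF under Senexin B, 6 for the interaction, 1530 for the mean Senexin B effect and 2026 for the mean TNF effect. MED13 was then called for Senexin B with TNF (adjusted p = 0.0430), and CCNC for TNF against control (0.0272), Senexin B with TNF (0.0410) and the mean Senexin B effect (0.0294). The block, as sign flips of same-numbered differences, gave the MED13 to MED13L ratio an exact p of 0.0312 for the mean Senexin B effect.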

Other observations

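Over the 12 libraries, the tested genes whose levels ran most like those of a member were found by the Pearson correlation of log2(CPM + 1). The points share treatments and library composition and the genes are the extremes of 13083, so each coefficient is a description; the second value in each pair leaves out TNF replicate 1. For MED13 the closest were CHD4 (0.95; 0.98), BDP1 (0.95; 0.95) and SMCHD1 (0.95; 0.96). CHD4, which encodes a chromatin remodeller of the NuRD complex, averaged 546, 467, 639 and 577 CPM in control, Senexin B, TNF and combined libraries. For MED13L they were IRGQ (0.95; 0.96), AKAP12 (0.95; 0.95) and SPEN (0.93; 0.93). SPEN, a large transcriptional co-repressor, averaged 247, 253, 322 and 382 CPM in the same order. For CCNC they were CSE1L (0.96; 0.90), STXBP3 (0.96; 0.90) and UBE2K (0.95; 0.87), and for CDK8 RABGEF1 (0.98; 0.94), TTK (0.91; 0.84) and MRPL35 (0.90; 0.68). For CDK19 they were GTPBP6 (0.85; 0.87), C9orf172 (0.84; 0.88) and ARSB (0.83; 0.84), and for MED12 BAHCC1 (0.87; 0.88), WWC3 (0.87; 0.88) and AGO2 (0.85; 0.85).

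Among the members themselves, the pairs that ran together most closely over all 12 libraries were CCNC with MED13 (0.63; 0.47), CDK8 with CCNC (0.62; -0.02) and MED12 with MED13L (0.62; 0.62). Without TNF replicate 1 the closest pair was MED12 with MED13 (0.53; 0.68). Of the paralog pairs, the values were (0.41; 0.49) for MED13 and MED13L, (-0.41; -0.43) for CDK8 and CDK19 and (-0.50; -0.52) for MED12 and MED12L. The 12 libraries share 4 treatments, and the second value again leaves out TNF replicate 1.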
